A study of Mus musculus with 16 samples.

Results

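Semaphorins are a family of guidance ligands, and 8 of their genes are described here across mouse embryonic stem cell lines that differ in the chromatin protein MBD3: Sema3a, Sema3c, Sema3e, Sema3f, Sema4b, Sema4d, Sema6a and Sema6d. They were chosen by name, with results of these arrays known, from 19 semaphorin genes that have a probe set with a single gene symbol among 30102 such genes. Each of the 8 has 1 such probe set. The cells were male 129SV embryonic stem cells, and total RNA of each line was measured once in medium with LIF (leukemia inhibitory factor, the cytokine that keeps mouse stem cells undifferentiated) and once after 12 days without it, on 16 Affymetrix whole-transcript arrays. EBRTcH3 is the wild-type parent. The other 7 lines share a knockout of all forms of Mbd3 (Mbd3abc-KO) and carry a stably introduced vector for Mbd3a, Mbd3b, Mbd3c, Mbd3a(deltaMBD), Mbd3a(deltaC.C.), Mbd3a(deltaMBD&C.C.) or no protein (Empty). Here the 5 lines EBRTcH3, Mbd3a, Mbd3b, Mbd3c and Mbd3a(deltaMBD) are called retaining lines. The labels name no deletion of the coiled coil for them, though they do not state that Mbd3b and Mbd3c keep it. The 3 lines Empty, Mbd3a(deltaC.C.) and Mbd3a(deltaMBD&C.C.) are called lacking lines. The labels name no second culture or clone of any line, so lines serve as the replicates of a class and every p-value measures the spread between lines.

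MBD3 is a subunit of the NuRD chromatin-remodelling and deacetylase complex, which mouse stem cells need in order to leave the self-renewing state. Semaphorins share an extracellular sema domain and act through plexins, receptors whose intracellular part regulates small GTPases and, through them, the cytoskeleton and integrin adhesion. Class 3 semaphorins (Sema3a to Sema3g) are secreted and mostly bind a neuropilin that is paired with a plexin, classes 4 to 6 are transmembrane proteins, and Sema7a is held in the membrane by a lipid anchor. The family is best known from axon guidance, and also patterns vessels, heart, bone and immune cells.

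The 250 bases before the transcription start were read from RefSeq (GRCm38.p6). Windows of the 8 genes on 1 chromosome were left out before counting, and 6 of the 8 genes then had 10 windows in all. The 32841 mouse windows used for comparison below kept that chromosome. Sema3f and Sema6a had no window here, so the CpG and motif values do not cover them. Of the 8, Sema6a had the largest response to LIF withdrawal in the retaining lines. A gene without a window here may still have one in RefSeq. Printed here are those of Sema3c and Sema3e, which lie on the same chromosome and were high on the same arrays, and the window farther upstream of the 2 of Sema4b, which ran the other way. Each reads 5′ to 3′ on the strand of the gene, with CpG dinucleotides in capitals. They lie at chr5:17574566-17574815 (plus strand), chr5:14025026-14025275 (plus strand) and chr7:80186620-80186869 (plus strand).
Sema3c: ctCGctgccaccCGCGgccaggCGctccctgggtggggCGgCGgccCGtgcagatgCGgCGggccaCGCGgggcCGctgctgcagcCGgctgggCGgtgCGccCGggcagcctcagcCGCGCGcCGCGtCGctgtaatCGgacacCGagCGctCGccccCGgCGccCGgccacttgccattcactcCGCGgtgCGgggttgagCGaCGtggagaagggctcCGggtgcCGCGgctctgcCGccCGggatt
Sema3e: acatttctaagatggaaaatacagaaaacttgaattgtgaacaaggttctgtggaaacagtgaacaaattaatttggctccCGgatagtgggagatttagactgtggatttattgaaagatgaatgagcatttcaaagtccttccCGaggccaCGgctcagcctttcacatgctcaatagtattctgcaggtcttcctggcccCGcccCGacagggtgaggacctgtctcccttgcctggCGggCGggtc
Sema4b: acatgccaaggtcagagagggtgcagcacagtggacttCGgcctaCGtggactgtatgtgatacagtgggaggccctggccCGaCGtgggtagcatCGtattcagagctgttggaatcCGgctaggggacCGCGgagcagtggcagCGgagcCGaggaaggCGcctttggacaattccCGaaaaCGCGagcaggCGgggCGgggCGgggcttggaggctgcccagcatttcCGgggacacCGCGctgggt
The Sema3c window held 39 CpG and 78.4% G+C, and 98.4% of 32841 mouse promoter windows of the same length held fewer CpG. That of Sema3e held 7 CpG and 48.0% G+C, close to the median window with 6 CpG and 52.4% G+C. The Sema4b window held 20 CpG, and its second window 23. The window of Sema3a held 2 CpG, those of Sema4d 1 to 2 and those of Sema6d 6 and 9. The GC box GGGCGG, searched on both strands, was found 3 times before Sema3c, 2 times before Sema3e and 2 times in each Sema4b window. It was also found once in 1 of the 3 Sema4d windows and once in 1 of the 2 Sema6d windows, and in 32.8% of all windows. The letters TTCCNGGAA, a STAT motif, were in 0.91% of all windows and TATAAA in 12.4%, and neither was in these 10 windows. The E-box CACGTG (6.02% of all windows) was found once each for Sema4b and Sema6d, and the AP-1 motif TGANTCA (6.75%) once for Sema4d. Sema3c and Sema3e, with unlike CpG content in these windows, both had their highest group mean in the retaining lines without LIF and their lowest in the lacking lines with LIF.

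The values are log2 signals, with array medians of 4.72 to 4.85. A gene counted as measured above the low-signal limit where it lay above its array's 40th percentile (4.24 to 4.38) on at least 3 arrays, and 22872 genes did. The Mbd3 probe set read 7.00 with LIF and 7.45 without LIF in the Empty line, against 8.48 to 9.15 and 8.45 to 9.59 in the other 7 lines. All 9 pluripotency markers looked at (among them Pou5f1, Sox2 and Nanog) were above the limit on every array. Their mean log2 level was 11.53 to 11.82 in the retaining and 11.61 to 11.74 in the lacking lines with LIF, and 10.33 to 10.78 and 11.00 to 11.15 without LIF. The mean of the trophoblast markers was 6.09 to 6.50 in the retaining lines with LIF and 7.16 to 8.48 without LIF, against 6.24 to 6.56 and 6.94 to 7.11 in the lacking lines. The mean of the mesenchyme markers was 5.36 to 5.72 with LIF and 5.88 to 6.36 without LIF in the retaining lines. In the lacking lines it was 5.78 to 6.02 and 5.75 to 5.81. Dcn and Postn lay below the array's 40th percentile on every array of the lacking lines and of the retaining lines with LIF. In the retaining lines without LIF neither did so on every array, but Postn exceeded it on too few arrays to be tested. Neural markers ranged from 6.34 to 6.97 over the 4 groups, with Dcx below the limit on every array. Primitive endoderm markers ranged from 6.00 to 6.63 and endothelium markers from 6.45 to 6.90. The part of these markers in the semaphorin values was not tested, and in bulk RNA fewer cells of a type and less RNA per cell cannot be told apart.

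After LIF withdrawal, Sema6a, Sema3e, Sema3c and Sema3f were higher and Sema4b lower in every retaining line, and the lacking lines had smaller differences or none. Sema3a stayed below the low-signal limit on all 16 arrays, and Sema4d and Sema6d moved little. Of the 7 genes above the limit, 4 were called higher and 1 lower in the retaining lines by limma (adjusted p under 0.05), where 35.8% of all genes tested were called, 21.3% higher and 14.5% lower. In the lacking lines 2 were called higher, against 2.93% of all genes (1.71% higher, 1.22% lower). This last share rests on 670 calls, which became 114 without Empty, 266 without Mbd3a(deltaC.C.), 280 without Mbd3a(deltaMBD&C.C.) and 1039 without Mbd3a(deltaMBD). The response differed between the classes for 5 of the 7, 4 with a lower and 1 with a higher response in the lacking lines, against 12.1% of all genes (7.90% lower and 4.17% higher). With LIF, 1 was called higher and 1 lower in the lacking lines (all genes 14.1%, with 7.65% higher and 6.48% lower). Without LIF, 2 were called higher and 4 lower (all genes 20.9%, with 8.55% higher and 12.4% lower). The genes were chosen with these contrasts known, so nothing is read from these counts and no p-value is given for any of the 8. The 5 comparisons share arrays with each other. Their median difference was 1.27 in the retaining and 0.38 in the lacking lines for LIF withdrawal, -1.13 for the difference in response, -0.29 between classes with LIF and -0.64 without LIF, where all genes tested had medians of 0.04, -0.00, -0.05, 0.05 and 0.01.

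The split of all called genes into higher and lower moved with the scaling of the arrays. In the retaining lines, 59.5% of the genes called after LIF withdrawal were higher as deposited, 47.4% after quantile normalization and 41.9% with each array centred on its median, which moved the median of all genes by -0.10 on the log2 scale. The share called higher for the difference in response was 34.5%, 46.1% and 47.9% under the same 3 scalings. With LIF, 54.1% of the genes that differed between the classes were higher in the lacking lines as deposited, and 40.6% after centring. None of the differences named below turned its sign under these scalings where it had passed.

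**Figure D1:**
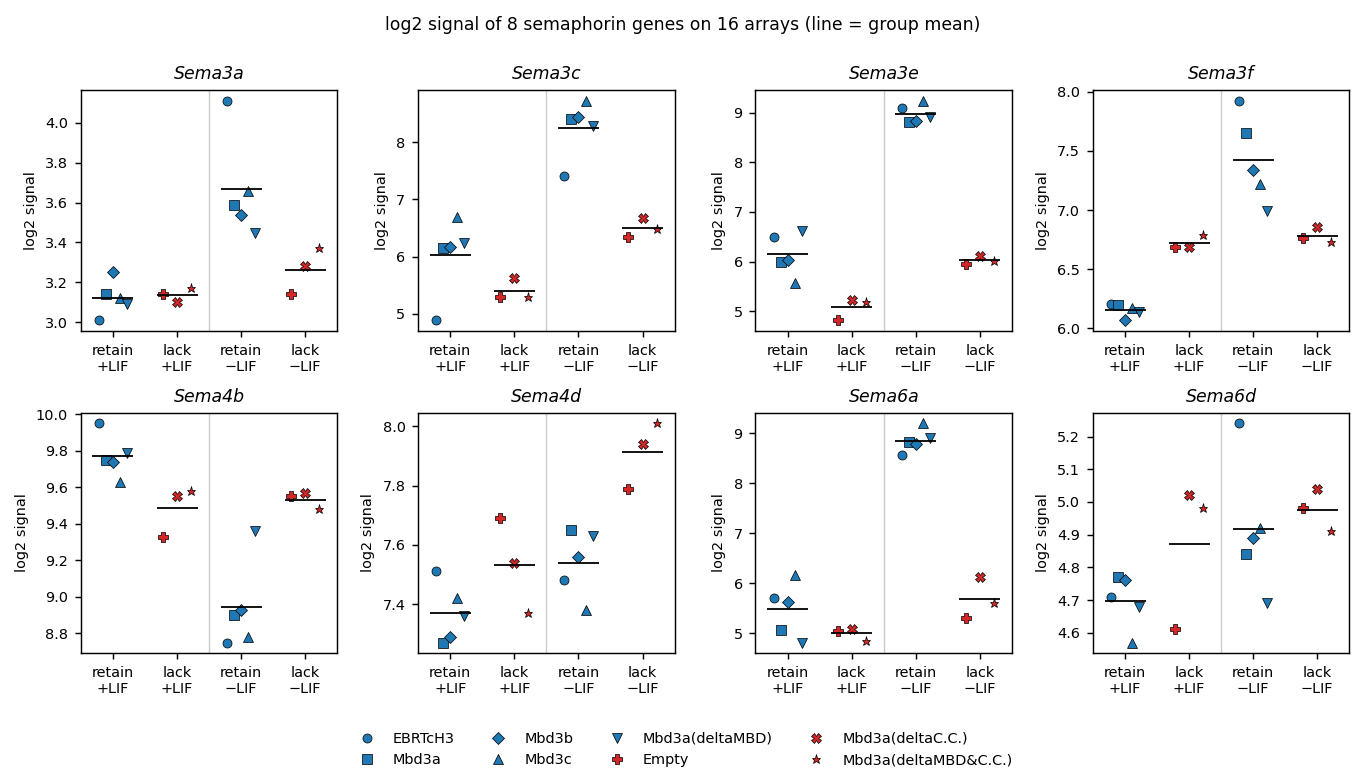
Log2 signal (y axis, its own scale in each panel) of the 8 semaphorin genes on the 16 arrays, with blue points for the 5 retaining lines, red points for the 3 lacking lines and a bar at each group mean. Sema3c, Sema3e and Sema6a are highest in the retaining lines without LIF, Sema4b is lowest there, and Sema3a reads between 3.01 and 4.11 throughout.

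Sema3e is a secreted ligand that binds plexin D1 without a neuropilin and is known for repelling growing vessels. With LIF its log2 signal was 6.49 for EBRTcH3, 6.00 for Mbd3a, 6.04 for Mbd3b, 5.57 for Mbd3c and 6.62 for Mbd3a(deltaMBD), and 4.82 for Empty, 5.23 for Mbd3a(deltaC.C.) and 5.19 for Mbd3a(deltaMBD&C.C.). Without LIF it was 9.10, 8.80, 8.83, 9.23 and 8.91 in the same retaining lines, and 5.95, 6.11 and 6.01 in the lacking lines. The classes did not overlap in either condition, and the lacking lines without LIF lay within the range of the retaining lines with LIF. The difference without minus with LIF was 2.83 ± 0.51 (SD, n = 5), a 7.11-fold higher signal, in the retaining lines, and 0.94 ± 0.16 (SD, n = 3), a 1.92-fold higher signal, in the lacking lines. The difference between these responses was -1.89 (SE 0.25). Mbd3c had the largest response, 3.66, and the lowest level of the retaining lines with LIF. Sema3e was 2.09-fold lower in the lacking than in the retaining lines with LIF (log2 difference -1.06, SE 0.21) and 7.73-fold lower without LIF (-2.95, SE 0.11).

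Sema3c, a secreted ligand for neuropilins that is needed for the outflow tract of the heart, had a response that varied little beside its size. With LIF it read 4.89 for EBRTcH3, 6.15 for Mbd3a, 6.16 for Mbd3b, 6.70 for Mbd3c and 6.24 for Mbd3a(deltaMBD), and 5.30 for Empty, 5.63 for Mbd3a(deltaC.C.) and 5.29 for Mbd3a(deltaMBD&C.C.). Without LIF the retaining lines read 7.41, 8.40, 8.44, 8.72 and 8.29 and the lacking lines 6.34, 6.68 and 6.48. EBRTcH3, the line with its own Mbd3, was the lowest retaining line in both conditions and with LIF lay below all 3 lacking lines, so the classes overlapped with LIF and did not overlap without it. The difference without minus with LIF was 2.22 ± 0.20 (SD, n = 5; 4.67-fold) in the retaining lines and 1.09 ± 0.08 (SD, n = 3; 2.13-fold) in the lacking lines, and the responses themselves ran from 2.02 to 2.52 and from 1.04 to 1.19. The response of the lacking lines was smaller by a log2 difference of -1.13 (SE 0.14). Without LIF, Sema3c was 3.37-fold lower in the lacking lines (-1.75, SE 0.25). With LIF the difference was -0.62 (SE 0.31).

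Sema3f is a secreted ligand of neuropilin 2. With LIF it read 6.21 for EBRTcH3, 6.20 for Mbd3a, 6.07 for Mbd3b, 6.17 for Mbd3c and 6.14 for Mbd3a(deltaMBD), and 6.69 for Empty, 6.69 for Mbd3a(deltaC.C.) and 6.79 for Mbd3a(deltaMBD&C.C.). Without LIF it read 7.92, 7.65, 7.34, 7.22 and 6.99 in the retaining and 6.76, 6.86 and 6.73 in the lacking lines. The order of the classes turned: Sema3f was 1.48-fold higher in the lacking lines with LIF (0.57, SE 0.09) and 1.56-fold lower without LIF (-0.64, SE 0.18), with no overlap in either condition. The lacking lines held their level, with a difference of 0.06 ± 0.12 (SD, n = 3) without minus with LIF, while the retaining lines differed by 1.27 ± 0.34 (SD, n = 5; 2.40-fold). The size varied among the retaining lines from 1.71 for EBRTcH3 to 0.85 for Mbd3a(deltaMBD). The difference between the responses was -1.21 (SE 0.19).

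Sema3a, a secreted ligand of neuropilin 1 that repels axons, read 3.01 to 3.25 with LIF in all 8 lines. Without LIF it read 4.11 for EBRTcH3, 3.45 to 3.66 in the other retaining lines and 3.14 to 3.37 in the lacking lines. The classes did not overlap without LIF, but no array reached its 40th percentile, so these differences (0.55 ± 0.32, SD, n = 5, and 0.13 ± 0.11, SD, n = 3) lie in the range of the dimmest probe sets and Sema3a was not among the genes tested.

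Sema6a, a transmembrane ligand and receptor that signals with plexins A2 and A4 in the developing nervous system, had the largest difference of the 8. With LIF it read 5.70 for EBRTcH3, 5.07 for Mbd3a, 5.63 for Mbd3b, 6.16 for Mbd3c and 4.81 for Mbd3a(deltaMBD), and 5.04 for Empty, 5.09 for Mbd3a(deltaC.C.) and 4.85 for Mbd3a(deltaMBD&C.C.). Without LIF it read 8.56, 8.82, 8.79, 9.20 and 8.90 in the retaining and 5.30, 6.12 and 5.61 in the lacking lines. The classes overlapped with LIF (-0.48, SE 0.25), and without LIF the lowest retaining line was above the highest lacking line by more than the whole spread of either class. The response was 3.38 ± 0.52 (SD, n = 5; 10.4-fold) in the retaining and 0.68 ± 0.39 (SD, n = 3; 1.61-fold) in the lacking lines, with a difference of -2.70 (SE 0.28). Mbd3a(deltaMBD) had the largest response, 4.09, and the lowest level with LIF. Among the lacking lines Empty had a response of 0.26, Mbd3a(deltaMBD&C.C.) 0.76 and Mbd3a(deltaC.C.) 1.03. Without LIF, Sema6a was 9.05-fold lower in the lacking lines (-3.18, SE 0.18).

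Sema6d, a transmembrane ligand of plexin A1 with a role in the heart, stayed within 4.57 to 5.24 on the 16 arrays. Its responses were 0.22 ± 0.22 (SD, n = 5) and 0.11 ± 0.23 (SD, n = 3), and the classes overlapped in both conditions. EBRTcH3 without LIF was its highest array.

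Sema4b, a transmembrane semaphorin found at synapses, was the only one of the 8 with lower signal in every retaining line after LIF withdrawal. With LIF it read 9.95 for EBRTcH3, 9.75 for Mbd3a, 9.74 for Mbd3b, 9.63 for Mbd3c and 9.79 for Mbd3a(deltaMBD), and 9.33 for Empty, 9.55 for Mbd3a(deltaC.C.) and 9.58 for Mbd3a(deltaMBD&C.C.). Without LIF it read 8.75, 8.90, 8.93, 8.78 and 9.36 in the retaining and 9.55, 9.57 and 9.48 in the lacking lines. The classes did not overlap in either condition and changed places between them, as for Sema3f but in the opposite sense. The response was -0.83 ± 0.27 (SD, n = 5; 1.78-fold lower) in the retaining lines and 0.05 ± 0.16 (SD, n = 3) in the lacking lines, with a difference of 0.87 (SE 0.17). It ran from -1.20 for EBRTcH3 to -0.43 for Mbd3a(deltaMBD), the same 2 lines that were the ends for Sema3f. The lacking minus retaining difference was 0.59 (SE 0.13) without LIF. With LIF it was -0.29 (SE 0.11) and was not among the calls counted above.

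Sema4d, a transmembrane ligand of plexin B1 that is shed from the cell surface, read 7.51, 7.27, 7.29, 7.42 and 7.36 in the retaining lines with LIF, in the order EBRTcH3, Mbd3a, Mbd3b, Mbd3c and Mbd3a(deltaMBD), and 7.69 for Empty, 7.54 for Mbd3a(deltaC.C.) and 7.37 for Mbd3a(deltaMBD&C.C.). Without LIF the same lines read 7.48, 7.65, 7.56, 7.38 and 7.63, and 7.79, 7.94 and 8.01. Its responses, 0.17 ± 0.19 (SD, n = 5) and 0.38 ± 0.27 (SD, n = 3), overlapped between the classes. Without LIF its level was 1.30-fold higher in the lacking lines, with no overlap (0.37, SE 0.09).

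**Figure D2:**
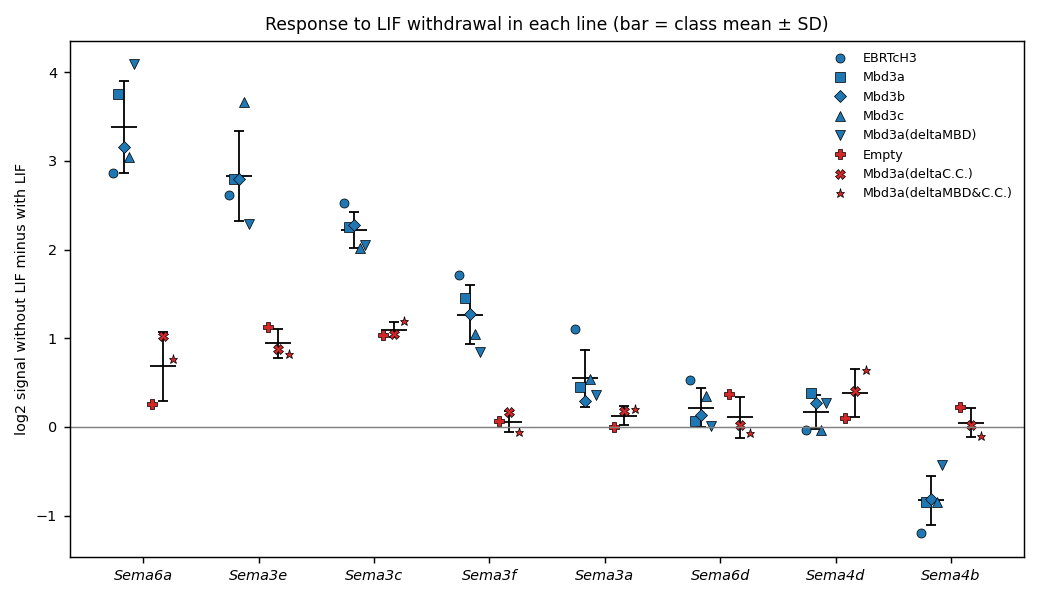
Response to LIF withdrawal (y axis, log2 signal without minus with LIF) of the 8 semaphorin genes in each line, with bars at the class mean ± SD (5 retaining lines in blue, 3 lacking lines in red). Points of the classes are apart for Sema6a, Sema3e, Sema3c, Sema3f, Sema3a and Sema4b, and mixed for Sema6d and Sema4d. Sema3a lay below the low-signal limit on every array. The 8 genes were chosen with these contrasts known, so nothing is read from how many lie apart.

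The numbers in the sample titles fall into 2 runs, which the labels do not call batches: EBRTcH3, Mbd3a, Mbd3b, Mbd3c and Empty in the first, and Mbd3a(deltaMBD), Mbd3a(deltaC.C.) and Mbd3a(deltaMBD&C.C.) in the second. The difference in response between the classes was -1.23 for Sema3c, -1.84 for Sema3e, -1.30 for Sema3f, 1.15 for Sema4b and -2.94 for Sema6a within the first run. Within the second it was -0.93, -1.44, -0.80, 0.39 and -3.20. Without LIF, the class difference within the first and the second run was -1.90 and -1.71 for Sema3c, -3.04 and -2.85 for Sema3e and -3.54 and -3.04 for Sema6a. For Sema3f it was -0.77 and -0.20, and for Sema4b 0.71 and 0.17. With LIF it was -1.21 and -1.41 for Sema3e and 0.53 and 0.60 for Sema3f, while Sema6a gave -0.60 and 0.16. Each run holds a single line of 1 class, so these are values with no test. For the response and for the levels without LIF, Sema3f and Sema4b kept their direction in both runs with a smaller size in the second. With LIF the class difference of Sema3f was not smaller in the second run. The sizes of Sema3c, Sema3e and Sema6a without LIF were similar.

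The levels of Sema3c, Sema3e and Sema6a moved together over the 16 arrays, with Pearson correlations of 0.95 for Sema3e with Sema6a, 0.92 for Sema3c with Sema6a and 0.88 for Sema3c with Sema3e. Sema4b ran against Sema3f (-0.92). Sema4d lay between -0.10 and 0.28 with each of the others. The arrays fall into the 4 groups and share lines, so these values describe the group pattern. By the same measure, and of 15805 genes compared, the gene most like each was Gng2 for Sema3e (0.98), Lamb1 for Sema6a (0.98), Capn6 for Sema3f (0.98), Phlpp2 for Sema3c (0.96), Dgkk for Sema3a (0.96), Flcn for Sema4b (0.96), Pgam2 for Sema6d (0.90) and Eaf1 for Sema4d (0.88).

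The other 11 semaphorin genes passed the filter on low signal and were tested in the fit over all 22872 genes. After LIF withdrawal in the retaining lines 5 rose and 1 fell (54.5% of the 11, against 35.8% of all genes), and in the lacking lines 1 fell (9.09% against 2.93%). The response was lower in the lacking lines for 4 (36.4% against 12.1%). With LIF 3 were higher in the lacking lines (27.3% against 14.1%), and without LIF 2 were higher and 4 lower (54.5% against 20.9%). Sema3d, counted among those that rose in the retaining lines and those lower without LIF, passed the filter on low signal through the retaining lines. Their median difference was 0.19 in the retaining and -0.04 in the lacking lines, -0.34 for the difference in response, 0.24 between classes with LIF and -0.10 without LIF, where all genes had 0.04, -0.00, -0.05, 0.05 and 0.01. Sema3g, Sema4f and Sema6c passed in none of the 5 comparisons.

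Sema7a, the membrane-anchored semaphorin that binds plexin C1 and beta-1 integrins, stood out with LIF. It read 5.70 for EBRTcH3, 5.73 for Mbd3a, 5.64 for Mbd3b, 6.04 for Mbd3c and 5.80 for Mbd3a(deltaMBD), and 7.88 for Empty, 7.64 for Mbd3a(deltaC.C.) and 7.85 for Mbd3a(deltaMBD&C.C.). It was 4.02-fold higher in the lacking lines (2.01, SE 0.12, limma adjusted p = 5.78e-06). Without LIF the retaining lines read 6.35, 5.87, 5.58, 5.84 and 6.20 and the lacking lines 6.97, 6.80 and 6.85, and Sema7a was still higher in the lacking lines (0.91, SE 0.16, limma adjusted p = 0.00292). The classes did not overlap in either condition. The difference narrowed: Sema7a fell by 0.92 in the lacking lines after LIF withdrawal (SE 0.15, limma adjusted p = 0.00876, lower in 3 of 3 lines), and its response differed between the classes by -1.10 (SE 0.19, limma adjusted p = 0.00381). The fall in the lacking lines missed the threshold without Empty (-0.92, limma adjusted p = 0.0782) or without Mbd3a(deltaMBD&C.C.) (-0.88, limma adjusted p = 0.0643). In both media Sema7a was thus higher in the lacking lines, where Sema3e was lower.

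Sema4g was also higher in the lacking lines with LIF, at 7.20 for Empty, 6.82 for Mbd3a(deltaC.C.) and 7.13 for Mbd3a(deltaMBD&C.C.) against 6.35 to 6.56 in the retaining lines (0.63, SE 0.11, 1.55-fold, limma adjusted p = 0.00386). Sema5a, a transmembrane semaphorin with thrombospondin repeats, took the pattern of Sema3f. It rose 2.16-fold in the retaining lines after LIF withdrawal (1.11, SE 0.10, limma adjusted p = 8.85e-06, 5 of 5 lines) and had a smaller response in the lacking lines (-0.91, SE 0.16, limma adjusted p = 0.00454). Its level was higher in the lacking lines with LIF (0.52, SE 0.12, limma adjusted p = 0.0131) and lower without LIF (-0.39, SE 0.09, limma adjusted p = 0.0139). The first of these level differences missed the threshold without Mbd3a(deltaC.C.) (0.49, limma adjusted p = 0.0632) or Mbd3a(deltaMBD&C.C.) (0.50, limma adjusted p = 0.0539), the second without Empty (-0.33, limma adjusted p = 0.0687) or Mbd3a(deltaMBD&C.C.) (-0.40, limma adjusted p = 0.0509).

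Sema4c, a transmembrane ligand of plexin B2, rose 2.72-fold in the retaining lines (1.44, SE 0.10, limma adjusted p = 1.59e-06). Its response was smaller in the lacking lines (-0.99, SE 0.16, limma adjusted p = 0.00323), and it was lower there without LIF (-0.65, SE 0.14, limma adjusted p = 0.00954). Sema3b, a secreted class 3 member, read 6.11 to 6.35 in the retaining lines with LIF and 6.78 to 7.58 without LIF, against 6.26 to 6.42 and 6.40 to 6.56 in the lacking lines. It rose 2.11-fold in the retaining lines (1.08, SE 0.12, limma adjusted p = 4.97e-05) and was lower in the lacking lines without LIF (-0.84, SE 0.17, limma adjusted p = 0.00647). The difference between its responses was -0.93 (SE 0.20, limma adjusted p = 0.0123) and missed the threshold without Mbd3a(deltaC.C.) (-0.92, limma adjusted p = 0.0521) or Mbd3a(deltaMBD&C.C.) (-0.92, limma adjusted p = 0.0520).

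The remaining 3 had smaller differences in the retaining lines. Sema6b rose by 0.39 (limma adjusted p = 0.00447), and Sema5b fell by 0.34 (limma adjusted p = 0.00753). Sema5b was higher in the lacking lines without LIF (0.40, limma adjusted p = 0.00274). Sema3d read 4.00 to 4.38 in the retaining lines with LIF and 4.38 to 4.82 without LIF, against 3.93 to 4.04 and 4.25 to 4.30 in the lacking lines. It was above the 40th percentile on 5 of 5 retaining arrays without LIF, on 1 of 5 with LIF and on 0 of 6 lacking arrays, so it was tested only through the group where it is high. Its differences, 0.42 for LIF withdrawal in the retaining lines and -0.33 between the classes without LIF, are therefore given as values. Without the filter on low signal the second did not pass (limma adjusted p = 0.0618).

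**Figure D3:**
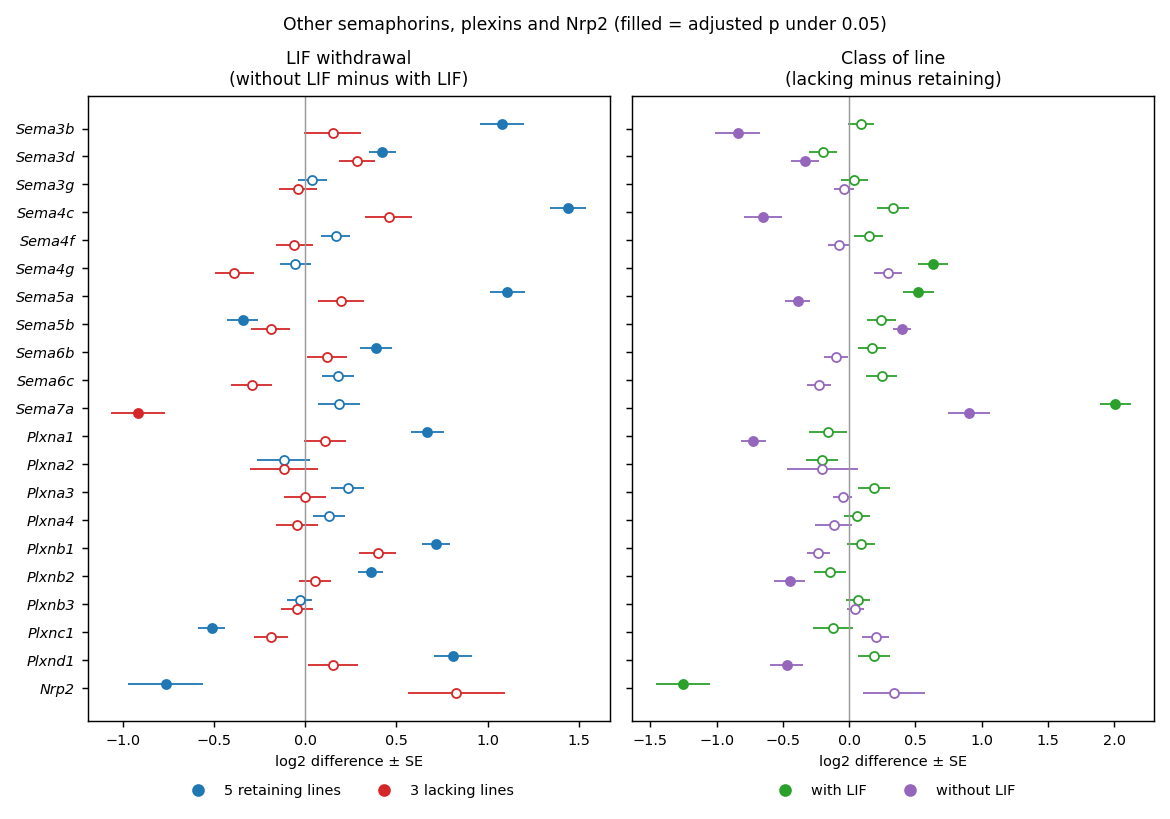
Log2 difference ± SE (x axis) of 11 other semaphorins, 9 plexins and Nrp2, for LIF withdrawal in the 2 classes of line (left) and for lacking minus retaining lines in the 2 media (right), with filled points for limma adjusted p under 0.05. Sema7a has the largest class difference with LIF, 2.01, and Nrp2 lies at the other end, at -1.26.

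Of the receptors, 9 plexins and Nrp2 were tested, and the probe set of Nrp1 shares its annotation with a microRNA gene, so Nrp1 was not analysed here. In the retaining lines 4 rose and 2 fell after LIF withdrawal (60.0% of the 10, against 35.8% of all genes). In the lacking lines 0 passed by limma, with 2 at an unadjusted p under 0.05 (2.93% of all genes passed). The response was lower in the lacking lines for 2 and higher for 1 (30.0% against 12.1%). With LIF 1 was lower there (10.0% against 14.1%), and without LIF 3 were lower (30.0% against 20.9%). The median difference of these 10 was 0.18, 0.03, -0.21, -0.03 and -0.16 in the 5 comparisons in the same order. Plxna2, Plxna3, Plxna4 and Plxnb3 passed in none of the comparisons.

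Nrp2, the neuropilin that binds Sema3f, read 8.75 for EBRTcH3, 8.98 for Mbd3a, 9.05 for Mbd3b, 8.40 for Mbd3c and 9.18 for Mbd3a(deltaMBD) with LIF, and 7.98 for Empty, 7.16 for Mbd3a(deltaC.C.) and 7.71 for Mbd3a(deltaMBD&C.C.). It was 2.39-fold lower in the lacking lines (-1.26, SE 0.20, limma adjusted p = 0.00243), with no overlap, where Sema3f was higher. Without LIF it read 8.94, 7.84, 7.87, 8.09 and 7.79 in the retaining and 8.58, 8.42 and 8.33 in the lacking lines, which overlap. Nrp2 fell by 0.77 in the retaining lines (SE 0.21, limma adjusted p = 0.0130), in 4 of 5 lines. EBRTcH3 had a response of 0.19, and the call was lost without Mbd3a (-0.67, limma adjusted p = 0.0509) or Mbd3b (-0.66, limma adjusted p = 0.0574). The responses of the lacking lines, 0.60 for Empty, 1.26 for Mbd3a(deltaC.C.) and 0.62 for Mbd3a(deltaMBD&C.C.), were all above those of the retaining lines (difference 1.59, SE 0.34, limma adjusted p = 0.0117), a call lost without Mbd3a(deltaC.C.) (1.38, limma adjusted p = 0.0643).

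Plxnd1, the receptor of Sema3e, read 5.83, 5.82, 5.67, 6.16 and 5.85 in the retaining lines with LIF and 7.05, 6.62, 6.59, 6.65 and 6.47 without LIF, and rose 1.75-fold (0.81, SE 0.11, limma adjusted p = 0.000133). The lacking lines read 6.18, 6.00 and 5.97 with LIF and 6.19, 6.34 and 6.08 without LIF. It was lower in the lacking lines without LIF (-0.47, SE 0.13, limma adjusted p = 0.0258), which missed the threshold without Empty (-0.47, limma adjusted p = 0.0799) or Mbd3a(deltaMBD&C.C.) (-0.41, limma adjusted p = 0.113). The difference between its responses, -0.66 (limma adjusted p = 0.0312), was lost with any 1 of 5 lines left out (limma adjusted p up to 0.108). It was also lost after quantile normalization (-0.52, limma adjusted p = 0.0703), after median centring (-0.56, limma adjusted p = 0.0554) and with the title run as a covariate (-0.64, limma adjusted p = 0.0812). Ligand and receptor were thus both higher without LIF in the retaining lines, Sema3e by more.

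Plxna1, a receptor of Sema6d and of class 3 ligands, rose 1.59-fold in the retaining lines (0.67, SE 0.09, limma adjusted p = 0.000150). Without LIF it read 9.54, 9.61, 9.47, 9.64 and 9.32 in the retaining lines and 8.67, 8.94 and 8.77 in the lacking lines (-0.72, SE 0.10, limma adjusted p = 0.000677). The difference between its responses, -0.56 (limma adjusted p = 0.0286), was lost with any 1 of 5 lines left out (limma adjusted p up to 0.0865) and with the arrays centred on their median (-0.46, limma adjusted p = 0.0968). Plxnb1, the receptor of Sema4d, rose 1.64-fold in the retaining lines (0.72, SE 0.08, limma adjusted p = 3.65e-05). Plxnb2 rose by 0.36 (limma adjusted p = 0.00157) and was lower in the lacking lines without LIF (-0.45, limma adjusted p = 0.0203), a call lost without any 1 of the 3 lacking lines (limma adjusted p 0.0558 to 0.0843). Plxnc1, the receptor of Sema7a, fell by 0.51 in the retaining lines (SE 0.07, limma adjusted p = 0.000241), in 5 of 5 lines.

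**Figure D4:**
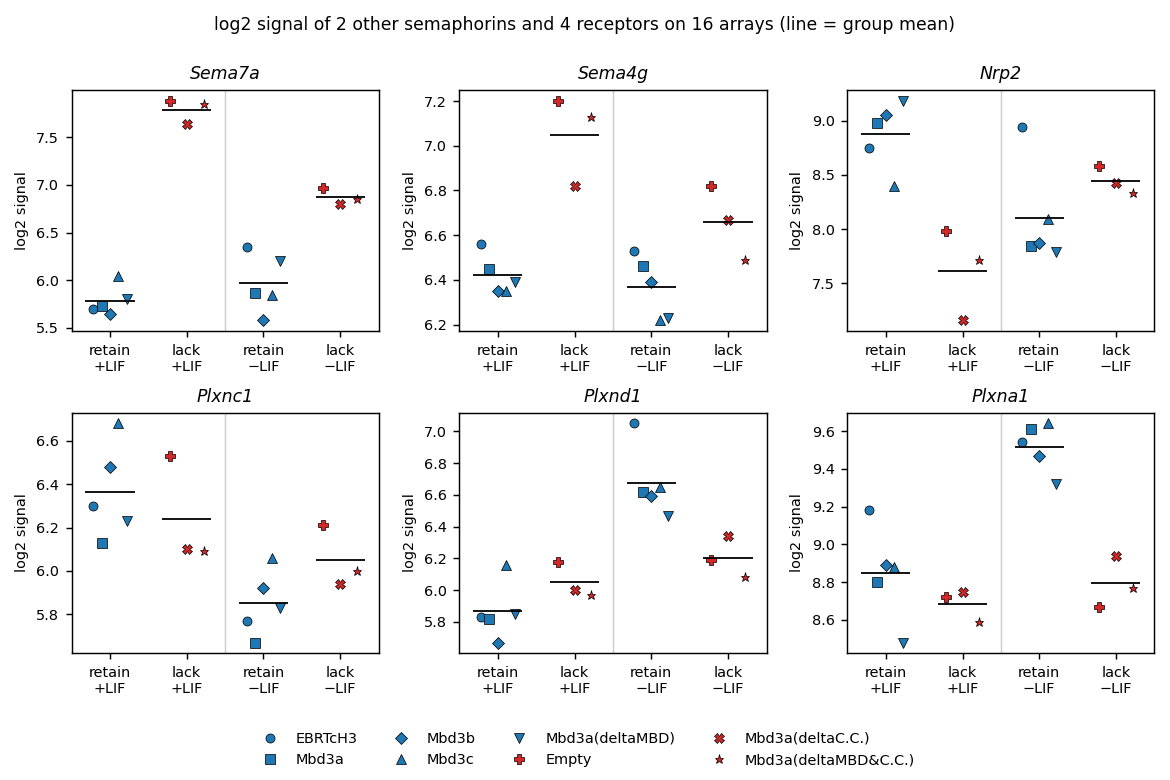
Log2 signal (y axis, its own scale in each panel) of Sema7a, Sema4g, Nrp2, Plxnc1, Plxnd1 and Plxna1 on the 16 arrays, with blue points for the 5 retaining lines, red points for the 3 lacking lines and a bar at each group mean. Sema7a is above 7.6 in the lacking lines with LIF, the mean of Nrp2 is lowest in the same group, and Nrp2 in EBRTcH3 without LIF, at 8.94, is apart from the other 4 retaining lines.

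The wider pathway (the other semaphorins, the receptors, co-receptors, intracellular effectors and processing proteases) had 69 genes above the limit. These lists were written with earlier results of the arrays known. In the retaining lines 37 rose and 7 fell after LIF withdrawal, 63.8% of the 69 against 35.8% of all genes, with a median difference of 0.36 against 0.04. After withdrawal in the lacking lines 2 rose and 2 fell, 5.8% against 2.93%, with a median of -0.00. The response was lower in the lacking lines for 21 and higher for 3, 34.8% against 12.1%, with a median of -0.29 against -0.05. With LIF 14 were higher and 2 lower in the lacking lines, 23.2% against 14.1%, and without LIF 8 were higher and 20 lower, 40.6% against 20.9%.

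Of 11 co-receptors and other receptors, 7 rose in the retaining lines and 0 fell (all genes 21.3% and 14.5%; median difference 0.60), and in the lacking lines 0 passed by limma, with 2 at an unadjusted p under 0.05 (all genes 2.93%). Those that rose, chosen for naming after their values were seen, included Nrcam (1.29) and L1cam (0.60), adhesion molecules of axons, Met (1.20) and Erbb2 (0.52), receptor kinases that pair with plexin B1, Kdr (1.08), the VEGF receptor, and Itgb1 (1.12), the beta-1 integrin. Of the 6 proteases, 5 rose in the retaining lines and 1 fell (all genes 21.3% and 14.5%; median difference 0.53). The proteases too were named after their values were seen. Furin, which cleaves class 3 semaphorins, rose by 0.95, Mmp14 by 1.22, Adam17 by 0.50 and Adam10 by 0.36, and Pcsk6 fell by 0.72. Pcsk5 rose too, most in EBRTcH3, where it read 4.51 with LIF and 5.95 without LIF. None of these proteases passed by limma in the lacking lines (0 of 6), with 1 at an unadjusted p under 0.05. Furin, Pcsk6, Adam10 and Adam17 were higher in the lacking lines with LIF, by 0.54, 0.58, 0.39 and 0.42.

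Of 31 intracellular effectors, 16 rose and 3 fell in the retaining lines (all genes 21.3% and 14.5%; median difference 0.27), and 2 rose and 1 fell in the lacking lines (all genes 1.71% and 1.22%). Rras, the small GTPase on which plexins act, read 8.20, 8.07, 7.50, 7.50 and 8.09 in the retaining lines with LIF and 10.86, 10.69, 10.33, 10.22 and 9.68 without LIF. The lacking lines read 8.21, 8.34 and 8.64 with LIF and 8.82, 8.51 and 8.43 without LIF. It rose 5.59-fold in the retaining lines (2.48, SE 0.17, limma adjusted p = 1.58e-06), and the response of the lacking lines was smaller (-2.29, SE 0.28, limma adjusted p = 0.000602). Dpysl2, which encodes the collapsin response mediator CRMP2, read 7.24 to 7.73 in the retaining lines with LIF and 8.96 to 9.83 without LIF, against 7.23 to 7.98 and 7.64 to 7.94 in the lacking lines. Its 4.04-fold rise in the retaining lines (2.02, SE 0.12, limma adjusted p = 4.39e-07) stood against a smaller response in the lacking lines (difference -1.78, SE 0.19, limma adjusted p = 0.000278). Without LIF the lacking lines were lower for Rras (-1.77, limma adjusted p = 0.000608) and Dpysl2 (-1.72, limma adjusted p = 0.000135). The classes did not overlap without LIF for either gene.

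Its relative Dpysl3 ran the other way between the classes: it was 2.52-fold higher in the lacking lines with LIF (1.33, SE 0.14, limma adjusted p = 0.000209) and 1.95-fold higher without LIF (0.96, SE 0.11, limma adjusted p = 0.000327). Farp1, an exchange factor that binds class A plexins, was 1.94-fold higher in the lacking lines with LIF (0.95, SE 0.10, limma adjusted p = 0.000225). It rose in the retaining lines (1.26, SE 0.10). In the lacking lines it went from 8.85 to 8.48 for Empty, 8.66 to 8.57 for Mbd3a(deltaC.C.) and 8.58 to 8.39 for Mbd3a(deltaMBD&C.C.), lower in each. The difference between the responses was -1.47 (SE 0.17, limma adjusted p = 0.000436). Without LIF Farp1 was lower in the lacking lines (-0.52, limma adjusted p = 0.0358), a call lost with any 1 of 7 lines left out. It was also lost with the title run as a covariate (-0.38, limma adjusted p = 0.136). In the lacking lines Crmp1 rose (1.06, SE 0.22, limma adjusted p = 0.0269), Dpysl3 rose (0.57, SE 0.11, limma adjusted p = 0.0218) and the kinase Fyn fell (-0.81, SE 0.17, limma adjusted p = 0.0283). These calls were lost without any 1 of the 3 lacking lines for Crmp1 (limma adjusted p 0.0564 to 0.211) and Dpysl3 (limma adjusted p 0.0630 to 0.138). That of Fyn was lost without Empty (-0.67, limma adjusted p = 0.210) or Mbd3a(deltaMBD&C.C.) (-0.78, limma adjusted p = 0.155). The same genes passed in the same direction in the retaining lines. There Dpysl3 rose by 0.94 (limma adjusted p = 1.19e-05) and Fyn fell by 0.56 (limma adjusted p = 0.00591). Crmp1 rose there by 0.53 (limma adjusted p = 0.0299), a call lost with some single lines left out. That call was also lost after median centring (0.43, limma adjusted p = 0.0710) and with the title run as a covariate (0.55, limma adjusted p = 0.0643).

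**Figure D5:**
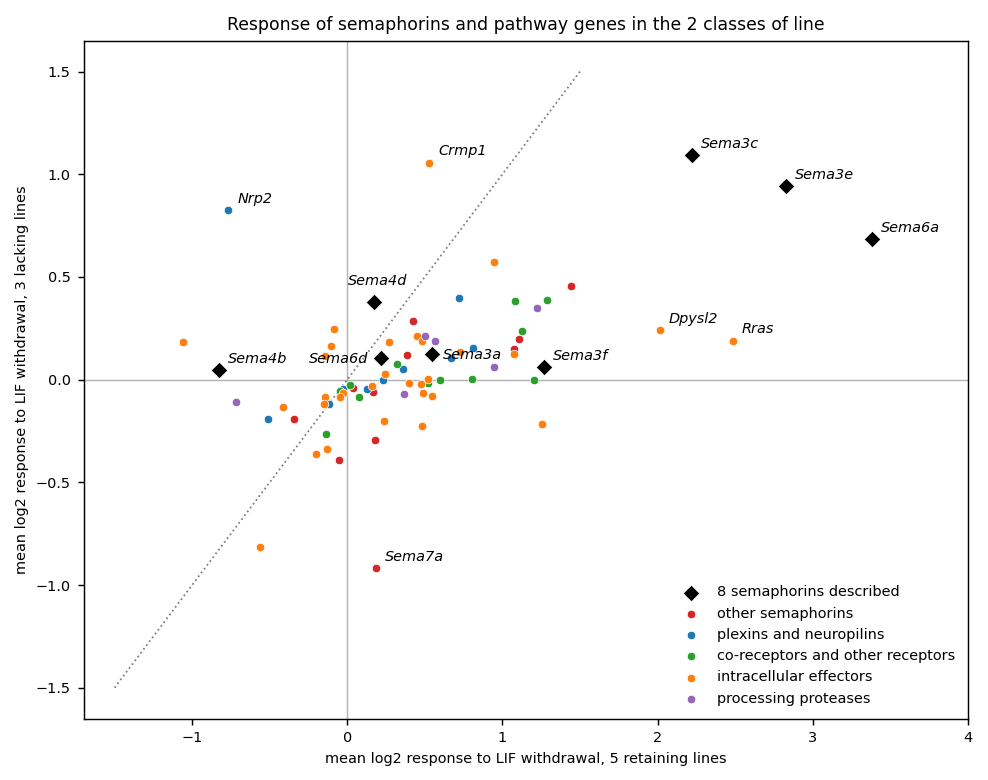
Mean log2 response to LIF withdrawal in the 5 retaining lines (x axis) against that in the 3 lacking lines (y axis). Black diamonds are the 8 semaphorins, and points coloured by list are the 69 tested pathway genes and Chl1, which is below the low-signal limit. The dotted line marks where both responses are equal. Sema6a, Sema3e and Sema3c lie far to the right at 3.38, 2.83 and 2.22 with lower values in the lacking lines, and Nrp2 and Sema7a lie far from the dotted line on opposite sides.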

How the data were processed

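Total RNA of 8 mouse embryonic stem cell lines with and without LIF was labelled with the Affymetrix WT Plus kit, per the labels' protocols, and gave 16 arrays, 1 per line and condition. Values were deposited on the log2 scale, after RMA in affy per the submitters' processing notes, which give no versions. The build and the probe set definition were not given in the sources used here. Of 65770 probe sets, 27 had no value, 30439 carried a single gene symbol, 2146 several and 33158 none. Symbols were updated through Entrez identifiers (22653 matched, 827 changed). Each gene was represented by its single-symbol probe set with the highest mean, which gave 30102 genes. Genes above the array's 40th percentile on at least 3 arrays were tested (22872) with limma 3.58.1 (lmFit, eBayes) in R 4.3.3, with Benjamini-Hochberg adjustment over all of them and an adjusted p under 0.05 as the threshold. LIF responses were fitted on the within-line differences, since both arrays of a line share that line, and classes were compared over the 8 arrays of each condition. No arrays held identical values.

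The 8 genes and all lists were chosen with earlier results of these data known. Genes named beyond them were every other semaphorin, plexin or neuropilin that passed in a comparison, the 2 pathway genes with the largest difference in each comparison, and the gene best correlated with each of the 8. Other co-receptors, all proteases and the chromosome neighbours were named after their values were seen. The fit was tested on simulated data: a log2 change of 1 was recovered for 94% of genes for LIF withdrawal in the retaining lines, 82% in the lacking lines, 73% for the difference in response, 87% for the classes with LIF and 89% without LIF, over 22872 genes each. Alternatives were no filter, a stricter filter (50th percentile), the mean of probe sets, quantile normalization, median centring, array weights, the run of title numbers as a covariate, no line block, all arrays in 1 fit, and each line left out. Values within each run of titles were chosen after seeing the data. The small number of arrays limits the precision.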

Additional observations from a re-analysis of the deposited data

Results flagged for a closer look

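In 3 groups of 5 retaining lines, 1 line lay far from the others, of 84 such groups looked at, where chance gives about 1 in 20. Nrp2 without LIF read 8.94 for EBRTcH3 and 7.79 to 8.09 in the other 4 lines. The response of Rras to LIF withdrawal was 1.59 for Mbd3a(deltaMBD) and 2.62 to 2.83 in the others. Dpysl3 with LIF read 7.77 for Mbd3c and 7.24 to 7.34 in the others.

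Responses to withdrawal of LIF were unequal in the 2 classes of line, by the test of the difference itself (limma adjusted p), for 10 named genes. The difference was -0.93 for Sema3b (limma adjusted p = 0.0123), -0.99 for Sema4c (limma adjusted p = 0.00323), -0.91 for Sema5a (limma adjusted p = 0.00454) and -1.10 for Sema7a (limma adjusted p = 0.00381). Among the receptors it was -0.56 for Plxna1 (limma adjusted p = 0.0286), -0.66 for Plxnd1 (limma adjusted p = 0.0312) and 1.59 for Nrp2 (limma adjusted p = 0.0117). Among the effectors it was -2.29 for Rras (limma adjusted p = 0.000602), -1.78 for Dpysl2 (limma adjusted p = 0.000278) and -1.47 for Farp1 (limma adjusted p = 0.000436). The calls of Sema3b, Plxna1, Plxnd1 and Nrp2 were lost with some single lines left out, that of Plxna1 also after median centring (limma adjusted p = 0.0968), and that of Plxnd1 after quantile normalization (limma adjusted p = 0.0703), after median centring (limma adjusted p = 0.0554) and with the title run as a covariate (limma adjusted p = 0.0812). Nrp2 was the only one of the 10 with a higher response in the lacking lines.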

How the results depend on the processing

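Counts of the 69 pathway genes that passed stayed within 1.5 times the reported value for 38 of 40 counts in other settings. These include the mean of probe sets, which leaves the values of genes with a single probe set unchanged. With a line left out 31 of 40 counts stayed within 1.5 times and 9 did not. With array weights 9 passed for LIF withdrawal in the lacking lines (4 as reported) and 26 for the classes with LIF (16 as reported). Without the replicate block, that is with the 16 arrays fitted without the line, 47, 5 and 26 passed for LIF withdrawal in the retaining lines, in the lacking lines and for the difference in response (44, 4 and 24 with the line), so the pairing by line changed no count by over 1.5 times. With each line left out the counts ranged from 39 to 46, from 0 to 5 and from 14 to 28 for these 3, from 8 to 20 for the classes with LIF and from 18 to 29 without LIF. For LIF withdrawal in the lacking lines 0 passed without Empty or without Mbd3a(deltaMBD&C.C.), and 2 without Mbd3a(deltaC.C.). The difference in response kept 14 and 15 calls, and the classes with LIF 8 and 9, without Mbd3a(deltaC.C.) and Mbd3a(deltaMBD&C.C.). The classes without LIF had 18 calls without Empty or without Mbd3a(deltaMBD&C.C.). A fit with fewer lines has less power. Of 52 calls of the 20 named genes outside the 8, 35 were kept in every setting, 9 were lost only with a line left out and 8 in another setting, and 0 reversed. With the title run as a covariate the calls of Plxnb2 (-0.35, limma adjusted p = 0.0834) and Plxnd1 (-0.41, limma adjusted p = 0.0988) between the classes without LIF were among those lost; the cause was not tested. For the 8 semaphorins all 320 values with a line left out moved by less than the spread (SD) between lines. Leaving 1 line out of a class mean cannot move it by more, so that outcome was fixed and is no check. In other settings 119 of 120 values moved by less than this spread. These include the mean of probe sets, which cannot move genes with a single probe set. Sema3f between the classes with LIF was 0.49 after median centring. Within the runs of titles 19 of 80 values moved by more than the spread and 0 reversed a called direction. Over all genes, array weights gave 1661, 5455 and 5373 calls for LIF withdrawal in the lacking lines, the difference in response and the classes with LIF (670, 2759 and 3233 as reported), and the title run as a covariate gave 1117 for the first. Without Mbd3a(deltaC.C.) and without Mbd3a(deltaMBD&C.C.) the difference in response had 1353 and 1369 calls and the classes with LIF 1779 and 1852. The classes without LIF had 3014 without Mbd3a(deltaMBD&C.C.) (4791 as reported). Sema3a lay below the low-signal limit on all 16 arrays and was not tested.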

Other observations

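Several of the 8 genes have relatives close by in the gene order of RefSeq (GRCm38.p6), which was looked at after the values were seen. On chromosome 5 the order is Sema3d, Sema3a, Sema3e, Pclo, Cacna2d1, Hgf, Sema3c and Cd36. After LIF withdrawal in the retaining lines, Sema3e differed by 2.83 and Sema3c by 2.22, while between them Pclo (-0.02, limma adjusted p = 0.891) and Cacna2d1 (-0.48, limma adjusted p = 0.104) did not pass, and Hgf (0.03) was below the low-signal limit. Cd36 (0.29), on the far side of Sema3c, was below it too. Cacna2d1, a calcium channel subunit, was lower in the lacking lines both with LIF (-1.26, limma adjusted p = 0.00566) and without LIF (-0.69, limma adjusted p = 0.0138).

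On chromosome 9 the order is Sema3b, Gnai2, Slc38a3, Gnat1 and Sema3f. Sema3b (1.08) and Sema3f (1.27) lay at the ends. Gnai2, a G protein subunit, rose in the retaining lines (0.92, limma adjusted p = 7.13e-06), with a smaller response in the lacking lines (-0.67, limma adjusted p = 0.00695). Slc38a3, an amino acid transporter, rose by 0.35 (limma adjusted p = 0.0416), and Gnat1 did not pass (0.26, limma adjusted p = 0.0771).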
